A study of Mus musculus with 2 samples.

Results

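Closely spaced shared regions are stretches of the mouse genome that were called in both replicates of a ChIP-seq experiment and that lie within 5 kb, edge to edge, of another such stretch. Overlapping regions of the replicate lists (1 bp or more) were merged into shared regions on chromosomes 1 to 19 of the mm9 build, and neighbours at most 5 kb apart were chained into clusters. Of 19959 shared regions, 2739 (13.7%) met this rule and formed 1302 clusters. The other 17220 are called isolated below. The members were selected on a readout, the positions of the called regions in both lists, so the count of members, their gaps and the sizes of their clusters are descriptions and were not tested.

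The immunoprecipitates came from the corneal epithelium of mice at postnatal day 7 that carried the K14 DN-Clim transgene, and the antibody recognised the Myc tag of the transgene product. The K14 promoter is active in basal cells of stratified epithelia, so the tagged protein is expected in those cells and is not the endogenous Clim protein. The data hold 1 group of 2 replicates, sample 1 and sample 2, and no library without the transgene, input or other antibody was analysed here. The labels do not state that different animals were used for each replicate, and what the replicates share may therefore be technical. With 1 group there is no comparison of conditions, regions are not replicates, and no p-value is given. Intervals are exact (Clopper-Pearson) 95% intervals of a share, or binomial 95% intervals of a median, and cover counting over regions only. The lists held 25592 and 42619 regions in samples 1 and 2, with no read counts, so the depth behind a region is unknown. The lowest deposited score was 70.03 in sample 1 and 50.00 in sample 2. Whether the lists were cut at a like threshold is not known, and this limits every contrast between them below.

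Clim proteins, also named Ldb, are nuclear cofactors with no DNA-binding domain of their own. They are brought to DNA by LIM-homeodomain proteins, and by LIM-only proteins in complexes with other DNA-binding factors. A Clim protein can also bind a further Clim molecule, which lets complexes at separate sites on the DNA be held together. Dominant-negative forms of Clim are made to bind LIM domains without this function. Transcription factors often bind in groups of neighbouring sites within an enhancer, and a group can appear in a ChIP-seq list as a run of separate regions. The same appearance can arise where reads from repeated sequence pile up. Genes near the clusters and the sequence under them were not analysed here, because no annotation or genome of the mm9 build was used.

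Most clusters were pairs. There were 1181 clusters of 2 regions (90.7% of clusters), 109 of 3, 11 of 4 and 1 of 6, and none of 5. The 121 clusters of 3 or more held 377 regions. A pair spanned a median of 2348 bp, from 231 to 5552 bp, and a cluster of 3 spanned a median of 5102 bp. The regions covered a median of 10.7% of their cluster's span, so clusters were mostly uncalled sequence with short called stretches in it. In 274 clusters the whole span was at most 1 kb.

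The gaps inside clusters were not evenly filled. Of 19940 gaps between consecutive shared regions, 1437 were at most 5 kb, with a median of 2100 bp and an interquartile range of 852 to 3504 bp. Gaps of at most 1 kb numbered 405, which is 28.2% of the close gaps, and gaps of 1 to 2 kb numbered 283. Each kb from 2 to 5 kb held 234 to 266 gaps. Beyond the limit the counts went on at a like level, with 247 gaps from 5 to 6 kb and a mean of 235 per kb from 5 to 10 kb. The 5 kb limit therefore cut through a flat part of the distribution, and the excess lay in the first kb. Within that first kb the count fell from 138 gaps of at most 250 bp to 105, 88 and 74 in the next steps of 250 bp. From 1 to 2 kb the same steps held 68 to 76 gaps.

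**Figure D1:**
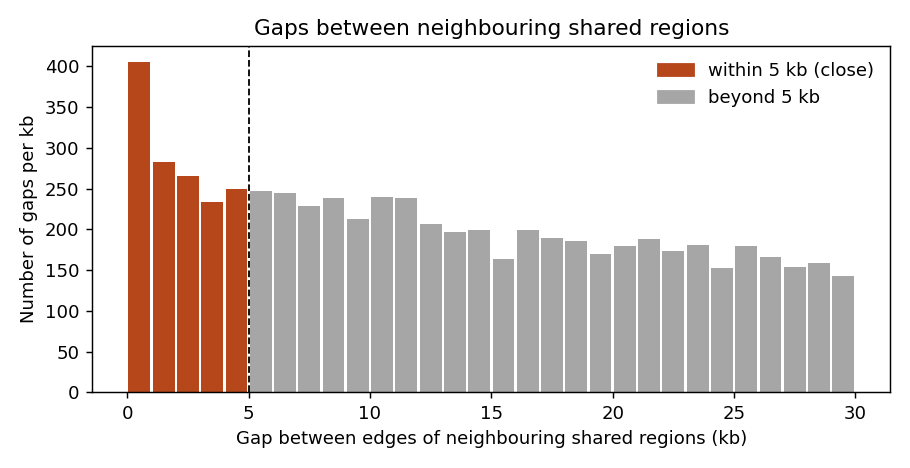
Number of gaps between the edges of neighbouring shared regions (y axis) for each kb of gap length (x axis, kb); bars at most 5 kb are the gaps inside clusters, and the dashed line is the 5 kb limit. The first bar stands at 405 gaps, the next at 283, and the bars on either side of the limit at 249 and 247.

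The widest gaps kept were 4997 bp on chromosome 4, between the regions from 106505838 to 106505911 and from 106510909 to 106510982, and 4986 bp on chromosomes 8 and 13. The narrowest gaps left out were 5006 bp on chromosome 19, between the regions from 4431737 to 4431811 and from 4436818 to 4436989, and 5009 bp on chromosomes 2 and 10. The chromosome 4 pair scored 287.38 and 236.67 in sample 1 and 82.43 and 75.66 in sample 2. The chromosome 19 pair scored 164.43 and 266.24 in sample 1 and 79.12 and 94.55 in sample 2. Scores are given as the authors deposited them, from their peak caller, and rank regions only within a list.

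The largest cluster held 6 shared regions in 8295 bp of chromosome 11, from 108780670 to 108788964. All of its sample 1 regions were narrow, 69 to 78 bp wide, while the sample 2 regions at the same places were 57 to 145 bp wide. From left to right, the sample 1 scores were 124.45, 190.96, 133.82, 161.47, 151.37 and 145.65. The sample 2 scores in the same order were 125.65, 66.83, 98.26, 59.46, 116.77 and 50.50. The region that scored highest in sample 1, the second from the left, was among the lower ones in sample 2, and the lowest of sample 1, at the left end, was the highest of sample 2. The gaps between the regions ran from 548 to 2771 bp. To the right of the cluster, 84 kb away, was the shared region at chromosome 11 from 108872943 to 108873394, which scored 2297.98 in sample 1 and 1185.29 in sample 2, far above every region of the cluster.

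Of the 11 clusters of 4, a pair of them was made of wide regions. The cluster on chromosome 11 from 3000194 to 3004467 holds the first shared region of that chromosome, and its regions were 389 to 742 bp wide and covered 50.8% of its span. Its scores ran from 115.73 to 192.13 in sample 1 and from 51.26 to 186.63 in sample 2. The cluster on chromosome 2 from 98502355 to 98507525 had regions 409 to 1161 bp wide that covered 56.4% of its span. There the sample 1 scores were 1994.19, 530.76, 251.18 and 2431.67 from left to right, and the sample 2 scores were 219.46, 148.76, 351.96 and 226.90. The third region was the lowest of the cluster in sample 1 and the highest in sample 2. Whether these wide clusters lie in repeated sequence was not tested.

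The other clusters of 4 named by rule were made of short regions that covered 5.27% to 10.1% of their spans. On chromosome 11 from 54845637 to 54850126 the sample 1 scores ran from 93.90 to 159.14 and the sample 2 scores from 52.86 to 133.30. On chromosome 7 from 80280394 to 80286660 the left end region scored 427.44 in sample 1 and 160.39 in sample 2, the highest of its cluster in both lists. The other regions of that cluster scored 71.21 to 183.73 in sample 1 and 57.54 to 103.36 in sample 2. On chromosome 2 from 165703905 to 165710812 the regions were 153 to 184 bp wide, and the megabase around them held 31 shared regions. The left end region was the highest of that cluster in both lists, with 278.63 in sample 1 and 105.16 in sample 2.

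On chromosome 8 from 120267424 to 120274424 the scores ran from 97.95 to 240.37 in sample 1 and from 50.80 to 86.19 in sample 2. On chromosome 4, the cluster from 132562951 to 132569976 had its highest score at the left end in both lists, 243.51 and 255.25. A further cluster on chromosome 4, from 119305745 to 119312845, had its highest score at its second region in both lists, 245.45 and 118.80. The last cluster named by rule lay on chromosome 11 from 95864258 to 95873587, with regions 138 to 239 bp wide and gaps of 2588 to 3033 bp. Its left end region again scored highest in both lists, 247.97 and 174.34. Over the 12 clusters of 4 or more, the same region scored highest in both lists in 5. In the others the top differed, as on chromosome 8, where the third region led in sample 1 and the second in sample 2, and at the start of chromosome 11, where the left end led in sample 1 and the right end in sample 2.

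**Figure D2:**
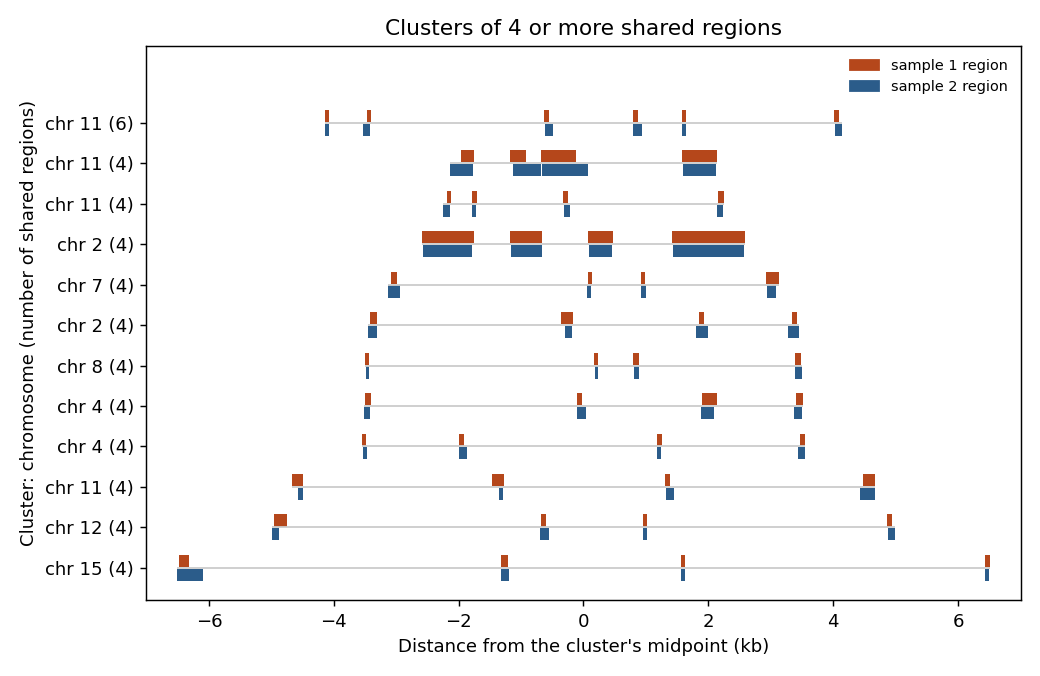
The 12 clusters of 4 or more shared regions, drawn to scale by distance from each cluster's midpoint (x axis, kb); upper boxes are the sample 1 regions and lower boxes the sample 2 regions with the highest score in each shared region. A chromosome 11 and a chromosome 2 cluster are filled by wide boxes (50.8% and 56.4% of the span covered), and the others are short boxes in long gaps.

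The closest members were almost in contact. On chromosome 2 the regions from 167625881 to 167626039 and from 167626049 to 167626171 were 9 bp apart. The right one scored higher in both lists, with 142.91 against 81.54 in sample 1 and 185.33 against 63.66 in sample 2. On chromosome 13 the regions from 34318664 to 34318898 and from 34318908 to 34319006 were also 9 bp apart. There the right one scored higher in sample 1, 92.47 against 71.47, and lower in sample 2, 65.82 against 102.51. The next gap, 11 bp, lay within the wide chromosome 11 cluster that starts at 3000194. Gaps of 18 bp followed on chromosome 1, between regions ending at 192628906 and starting at 192628925, and on chromosome 9, between regions ending at 27177273 and starting at 27177292. The left region scored higher in both lists at the chromosome 1 pair (195.94 against 101.50, and 131.91 against 107.39). The right region did so at the chromosome 9 pair (259.15 against 115.43, and 108.11 against 59.28).

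Of the 100 shared regions with the highest mean score percentile over both lists, 13 were close (interval 7.11 to 21.2%). This is near the 13.7% of all shared regions that were close. The lists differed here. The top 10% of the sample 1 list held 9.27% of close (8.21 to 10.4%) and 11.7% of isolated regions (11.2 to 12.1%), against 11.3% of all shared regions. The top 10% of the sample 2 list held 18.7% of close (17.2 to 20.2%) and 17.3% of isolated regions (16.7 to 17.8%), against 17.5% of all. The strongest member, at chromosome 5 from 147072489 to 147072961, scored 768.48 in sample 1 and 483.98 in sample 2, and its neighbour 4935 bp away scored 177.34 and 150.00. A chromosome 2 member, from 104142068 to 104142296, scored 678.96 and 650.81, the highest sample 2 score of any member, beside a neighbour at 181.36 and 86.67. A further chromosome 5 member, from 145271438 to 145271597, reached 724.01 and 407.59, and its neighbour 960 bp away scored 99.62 and 58.92. A chromosome 9 member, from 121286406 to 121286553, scored 528.98 and 257.90 beside a neighbour at 74.76 and 81.84. The fifth was the right end of the wide chromosome 2 cluster, from 98506365 to 98507525, with 2431.67 and 226.90. The first 4 of these strong members each stood beside a neighbour that was far weaker in both lists, which choosing members for their strength favours.

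Over all 1181 pairs the stronger and the weaker member were also unequal. The median score was 211.82 for the higher and 131.07 for the lower member in sample 1, and 121.97 and 75.33 in sample 2. Taking the higher and the lower of any 2 values separates their medians, so these numbers describe the pairs and are no sign of a strong and a weak partner. Whether the same member was the stronger one in both replicates does not follow from that choice. It was so for 764 of the 1428 close gaps without tied scores (53.5%, 95% interval 50.9 to 56.1%). This count takes in the gaps of larger clusters as well as those of the pairs. In larger clusters neighbouring gaps share a region, which the interval does not allow for. For neighbours 5 to 20 kb apart the share was 57.9% (56.1 to 59.6%, 3153 gaps). For neighbours at most 1 kb apart it was 48.1% (43.1 to 53.1%, 397 gaps), and for those 1 to 5 kb apart 55.6% (52.5 to 58.6%). The interval of the closest neighbours includes 50%, so for them the replicates did not give the same order more often than the opposite one at this number of gaps. These gaps were grouped after the values were seen, and the difference between the groups was not tested.

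The replicate scores of single members were weakly related. Spearman's rho between the scores was 0.14 over the 2739 close regions and 0.18 over the 17220 isolated ones, correlations across regions that share their libraries. In members with a neighbour at most 1 kb away rho was 0.11. In single steps of 1 kb it ran from 0.11 to 0.21 up to 5 kb, and from 0.12 to 0.32 between 5 and 12 kb. It was 0.21 at 4 to 5 kb, 0.12 at 5 to 6 kb and 0.32 at 6 to 7 kb. The steps vary too much to place a change at the limit. The overlap of the replicate regions was a median of 67.5% of their union in close and 67.7% in isolated regions. The start lay at the same base in 7.59% of close regions (6.63 to 8.65%) and in 7.78% of isolated ones (7.38 to 8.19%).

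Close and isolated regions had nearly the same width. The merged regions had a median width of 131 bp when close (interval 129 to 134 bp) and 132 bp when isolated (130 to 133 bp), and the interquartile ranges were 86 to 166 bp and 85 to 170 bp. In sample 1 the medians were 82 bp (81 to 83 bp) and 84 bp (83 to 84 bp). In sample 2 they were 105 bp (101 to 109 bp) and 101 bp (99 to 103 bp). The difference was 2 bp downward in sample 1 and 4 bp upward in sample 2. The intervals touch in sample 1 and overlap in sample 2, so these medians show no direction in either replicate. By autosome, close regions were narrower on 12, wider on 6 and equal on 1.

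Regions fell into a narrow and a wide population, with the boundary at 105 bp for sample 1 and at 100 bp for sample 2. Among close regions 986 (36.0%) were narrow in both lists, and the share was also 36.0% over all 19959 shared regions. Wide in both lists were 611 close regions (22.3%, interval 20.8 to 23.9%), against 23.4% of all shared regions and 23.6% of isolated ones (22.9 to 24.2%). The classes in which the replicates disagreed moved in opposite directions. Wide in sample 2 only were 30.5% of close (28.8 to 32.3%) and 27.1% of isolated regions (26.5 to 27.8%). Wide in sample 1 only were 11.2% of close (10.1 to 12.5%) and 13.3% of isolated regions (12.8 to 13.9%). The score differed between the groups in sample 1 only, as given below, and its part in these width classes was not tested.

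Neighbours within a cluster resembled each other little in width class. Both neighbours were of the same class in 28.5% of close gaps (26.1 to 30.9%). This was 27.9% for neighbours 5 to 20 kb apart, and 27.7% from the product of the class shares of all shared regions. At gaps of at most 1 kb it was 33.3% (28.8 to 38.2%, 405 gaps), an interval above that 27.7%. No such total was formed from the class shares of close regions, so an excess over them is not shown. The most common pair, with 276 of 1181 (23.4%), joined a region narrow in both lists to a region wide in sample 2 only, beside 21.9% from the product of the class shares of close regions. Across close gaps the scores of neighbours had a rho of -0.03 in sample 1 and 0.03 in sample 2. In sample 1 this joined 0.09 at gaps of at most 1 kb and -0.08 at 1 to 5 kb, and in sample 2 0.06 and 0.02. Knowing the rank of a region therefore said little of the rank of its neighbour.

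Over the shared regions of chromosomes 1 to 19, the median rank of the score was lower in close than in isolated regions in sample 1. It was the same in sample 2. Expressed as a percentile within its own list, the sample 1 score had a median of 45.7 in close (interval 44.1 to 47.7) and 54.0 in isolated regions (53.2 to 54.7). The scores behind these medians were 160.19 and 172.78. The sample 2 percentile had a median of 62.7 in both groups (intervals 60.9 to 64.2 and 61.8 to 63.4), with scores of 95.29 and 95.28. In sample 1 the close regions ranked lower on 18 of 19 autosomes, chromosome 16 being the exception with 56.1 for close and 54.7 for isolated regions. The sample 1 difference of -8.23 points was -4.77 with a 10 kb limit. It was -1.03 when regions below the median score of their list were removed, and this removal also narrows the range of ranks. For the difference of -8.23 points, an interval formed from those of both medians reaches 1.92 points to either side. No interval was computed for the difference of -1.03, which rests on fewer regions. The widest difference was on chromosome 18, where the medians were 35.1 and 54.1. In sample 2 the close regions ranked higher on 12 autosomes and lower on 7.

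**Figure D3:**
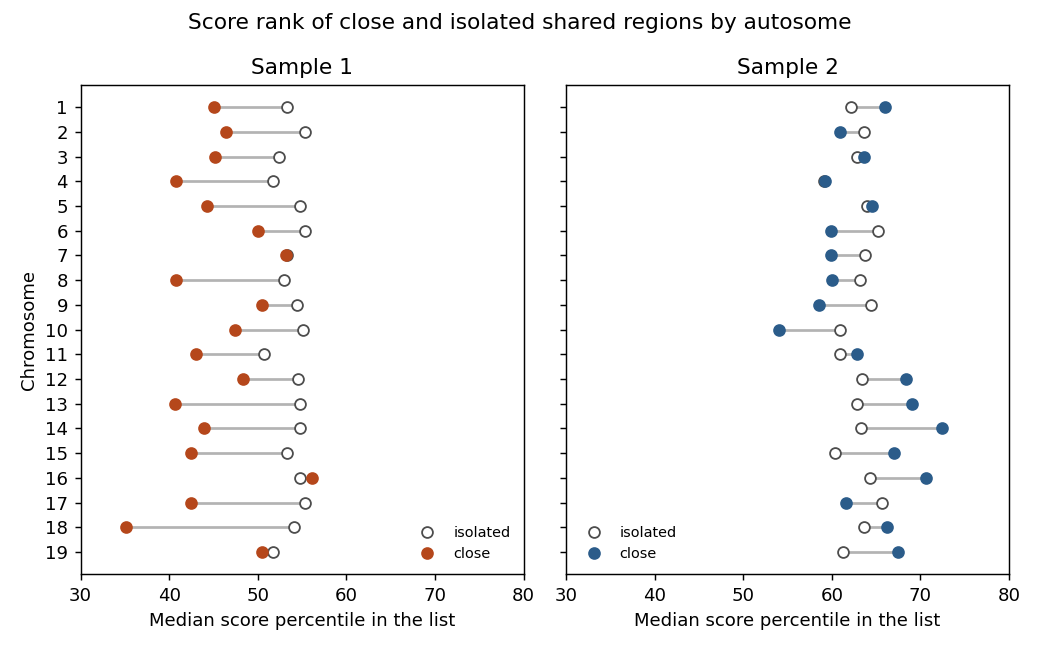
Median score percentile within each list (x axis) of close regions (filled circles) and isolated regions (open circles) for each autosome (y axis), sample 1 on the left and sample 2 on the right. In sample 1 the filled circle lies to the left on 18 of 19 autosomes, and in sample 2 it lies to the right on 12 and to the left on 7.

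The lower rank in sample 1 was seen mainly in narrow regions. Narrow sample 1 regions had a median percentile of 58.4 when close and 66.3 when isolated, and wide ones 20.9 and 22.8. No interval was computed for these medians, so a difference among wide regions is not shown. The lower rank was also seen within classes of regional density. In megabases with 5 to 8 shared regions the sample 1 medians were 41.2 and 52.6, and in those with 19 to 42 they were 45.2 and 53.2. In the sparsest megabases, with 1 to 4 shared regions and only 67 close ones, they were 49.2 and 50.3, and the number of close regions there is too small to show a difference of that size.

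The sample 1 scores of members also lacked the values that recur through the list. Many regions of a list carry exactly the same score, to its 2 decimals. In sample 1, 22 score values were each held by at least 100 regions and together by 3029 regions of the list, and in sample 2 there were 33 such values. The definition was chosen after the scores were seen. Of the close regions, 89 (3.25%, interval 2.62 to 3.98%) carried such a recurrent score in sample 1, against 10.7% of all shared regions and 11.9% of isolated ones (11.4 to 12.4%). The difference between close and isolated regions, -8.66 percentage points, was -18.86 when a score held by at least 50 regions counted as recurrent and -21.47 with at least 20. In sample 2, 484 close regions (17.7%, 16.3 to 19.2%) carried a recurrent score, against 17.8% of all shared regions and 17.8% of isolated ones (17.3 to 18.4%). The share in sample 1 was lower in close regions on each of the 19 autosomes, with differences (close minus isolated) of -11.04 to -6.41 percentage points, whereas in sample 2 it was higher on 7 and lower on 12. The most frequent sample 1 score, 172.77, was held by 190 isolated regions and by 2 close ones.

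The change came at the 5 kb limit itself. In the 5 steps of 1 kb up to 5 kb the sample 1 share was 3.52%, 2.93%, 3.98%, 2.75% and 2.84%. From 5 to 6 kb it was 11.7% (8.85 to 15.0%), and in the steps up to 12 kb it stayed between 10.4% and 12%. In finer steps of 250 bp it was 6.03% (2.46 to 12%) just inside the limit, from 4750 to 5000 bp, and 10.5% (4.90 to 18.9%) just outside, from 5000 to 5250 bp, and these intervals overlap, so the change cannot be placed to within 250 bp. It was 12.6% in regions more than 100 kb from the next one. The median sample 1 percentile changed less sharply, from 49.7 at 4 to 5 kb to 52.4 at 5 to 6 kb and 54.7 at 6 to 7 kb. In sample 2 the share lay between 15.2% and 19.6% in all 12 steps.

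**Figure D4:**
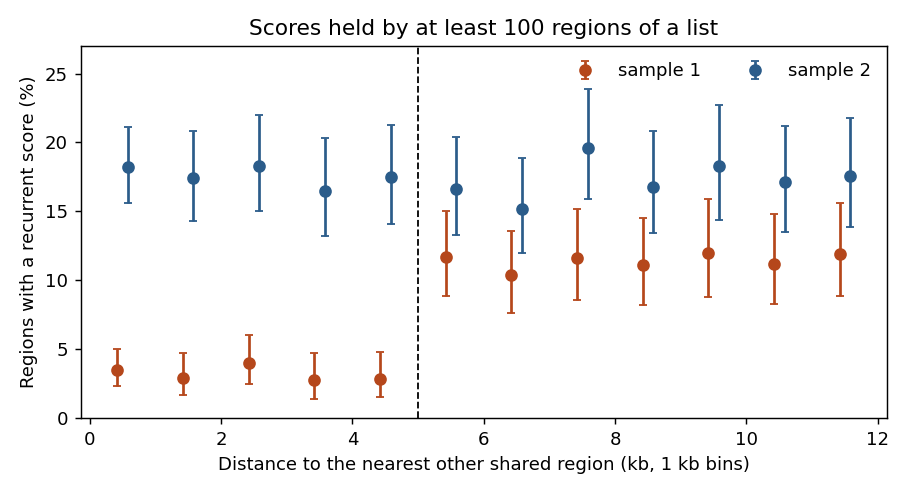
Share of shared regions whose score is held by at least 100 regions of the same list (y axis, %), by the distance to the nearest other shared region (x axis, kb, steps of 1 kb); points are sample 1 and sample 2, bars are exact 95% intervals, and the dashed line is the 5 kb limit. Sample 1 lies at 2.75% to 3.98% up to the limit and at 10.4% to 12% beyond it, and sample 2 at 15.2% to 19.6% throughout.

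The sample 1 share was also low beside neighbours of the sample 1 list that were not shared. It was lower beside sample 2 only regions as well. Among isolated shared regions, the 494 with a region of the sample 1 list only within 5 kb had a recurrent sample 1 score in 3.64% of cases (2.17 to 5.70%), and the 16726 without one in 12.1% (11.7 to 12.7%). The 2056 isolated regions with a region of the sample 2 list only within 5 kb, and none of sample 1 only, stood between them at 8.41% (7.25 to 9.70%). These 2056 are part of the 16726, and regional density was not held equal. Among close regions, the 497 with such a sample 2 only neighbour and none of sample 1 only had 1.01% (0.327 to 2.33%). The 2629 close regions with no sample 1 only region within 5 kb, which include these 497, had 3.35% (2.69 to 4.11%). Over the whole sample 1 list on the autosomes the share was 3.53% of the 3938 regions with a neighbour in that list within 5 kb and 12.8% of the 2945 with the nearest one at 5 to 10 kb. Over the sample 2 list the corresponding shares were 15.5% and 15.9%. How the score was computed in either list is not given in the sources used here, and the cause of the step, or of the lower sample 1 rank in clusters, was not tested.

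Regions called in only 1 replicate were counted near the members. A sample 2 only region lay within 5 kb of 528 close regions (19.3%, 17.8 to 20.8%), against 13.3% of all shared regions and 12.4% of isolated ones (11.9 to 12.9%). A sample 1 only region lay within 5 kb of 110 close regions (4.02%, 3.31 to 4.82%), against 3.03% of all and 2.87% of isolated ones (2.63 to 3.13%). Regional density moves with both values. Within density classes the share with a sample 2 only region was 18.5% of close and 12% of isolated regions in megabases with 9 to 12 shared regions, 17.5% and 13.9% in those with 13 to 18, and 22.6% and 16.5% in those with 19 to 42. The share with a sample 1 only region was nearer to equal, 3.95% and 2.85%, 3.34% and 3.16%, and 5.30% and 4.19% in the same classes.

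Close regions were commonest where shared regions were dense, which the rule favours. Their share rose from 3.47% of the shared regions in megabases with 1 to 4 of them to 23.9% in those with 19 to 42. Among autosomes the share was highest on chromosome 5 (254 of 1499, 16.9%, 15.1 to 18.9%) and chromosome 11 (214 of 1275, 16.8%, 14.8 to 19%). These intervals cover counting only, and since the rule chose on spacing they compare nothing. The share was lowest on chromosome 14 (77 of 812, 9.48%, 7.56 to 11.7%) and chromosome 1 (129 of 1346, 9.58%, 8.06 to 11.3%). The density of shared regions was 10.0 and 10.7 per Mb on chromosomes 5 and 11, and 6.65 and 6.94 per Mb on chromosomes 14 and 1. Clusters were found in 833 of the 2363 megabases with a shared region, and 107 megabases held 3 or more clusters. The megabase with most close regions lay on chromosome 11 from 98000001 to 99000000, where 14 of 29 shared regions were close and formed 6 clusters. The megabase on chromosome 5 from 117000001 to 118000000 followed with 13 of 30, also in 6 clusters.

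Each list on its own held longer chains than the shared regions. By the same rule, 15.9% of the sample 1 regions and 24.7% of the sample 2 regions on the autosomes were close. The longest sample 1 chain ran over 22 regions on chromosome 9 from 3015234 to 3038330, where sample 2 had 4 regions and 1 shared region resulted, which was isolated. The longest sample 2 chain ran over 8 regions on chromosome 7 from 38968600 to 38983535, where sample 1 had no region. The 6 shared regions of the largest cluster were part of a chain of 7 in sample 1, and all 6 sample 2 regions of that stretch were shared.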

How the data were processed

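Each replicate has a list of regions with chromosome, start, end, name and a score as deposited by the authors. What the score measures is not stated. Bowtie 0.12.7, bedtools 2.11.2 and mm9 are named in the submitters' processing notes. Region names begin with MACS, whose version, thresholds and control no source used here gives. Per the labels' protocols, 24 µg of chromatin entered each immunoprecipitation and reads of 50 cycles from the same lanes were combined after alignment. Read totals are unknown.

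Regions were merged, chained and ranked with numpy 2.4.6, pandas 2.3.3 and scipy 1.17.1 in Python 3.11.15. Where a merged region held more than 1 region of a list, its highest-scoring one gave width and score. bedtools 2.31.1 gave the same 1302 clusters, and the chaining was tested on simulated data. Width populations were separated at the emptiest 5-bp bin of each list. Named regions are the 10 largest clusters (ties by shorter span), the 5 closest pairs, the 5 members with the highest mean score percentile and the 3 gaps on either side of the limit. Megabases, chains of single lists and the region beside the largest cluster were picked after seeing their values. The members and lists were chosen with earlier results of these data known. Gene content and sequence were planned and left out, because no mm9 annotation or genome was used here. Alternatives changed the distance limit and measure, the overlap, the score threshold, the replicates, the chromosomes and the isolated group.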

Additional observations from a re-analysis of the deposited data

Results flagged for a closer look

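Chromosomes X and Y lie outside the rule and held clusters as well. On chromosome X, 56 of 591 shared regions (9.48%) lay within 5 kb of another, in 27 clusters of at most 3 regions. On chromosome Y, 10 of 23 shared regions (43.5%) did so, in 5 pairs. Chromosomes X and Y are given because the rule leaves them out, and the counts are descriptions. No control library was analysed here, so no background can be set beside them.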

How the results depend on the processing

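The share of close regions and the count of larger clusters followed the rule's own settings. With a limit of 2 kb, 6.72% of shared regions were close, in 32 clusters of 3 or more, and the width difference (close minus isolated, -1 bp with the 5 kb limit) was 5 bp. With 10 kb these were 23.95%, 354 and 2 bp, and the sample 1 percentile difference and the recurrent score difference fell in size to -4.77 and -5.29 points, since regions 5 to 10 kb apart then count as close. With 50% reciprocal overlap they were 10.94%, 70 and 2 bp. With the upper 50% of each list by score, fewer regions enter: 3.55%, 5 clusters, a sample 1 percentile difference of -1.03 within the kept range, and a sample 2 recurrent score difference of -2.03 points. With either list alone, the share was 15.87% to 24.67%, the count 210 to 801, the width difference -1 to 6 bp and the difference in wide regions -3.25 to 2.90 points. A list alone gives no score of the other. With isolated regions beyond 50 kb the width difference was 2 bp. The sample 1 recurrent score difference was -8.66 points with 100 regions per score. With minimums of 50 and 20, chosen after seeing the data, it was -18.86 and -21.47, and in narrow regions -13.38. It kept its sign in all 14 alternatives run, as did the sample 1 percentile difference in 11. The sample 2 percentile difference moved by less than its interval in 11 of 11. No paired analysis was possible because there is 1 group. Depth is unknown, so whether a gap in a cluster is uncalled for lack of reads cannot be said.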
